A study of Mus musculus with 3 samples.

Results

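A set of 9 protease inhibitor genes was followed in mouse macrophages that had met lipid A more than once: the cystatins Cst3 and Cstb, the whey acidic protein inhibitor Slpi, the clade B serpins Serpinb1a, Serpinb2, Serpinb6a and Serpinb9, and the clade A serpins Serpina3f and Serpina3g. They were chosen by gene symbol as inhibitors of proteases. No measured value entered that rule, but earlier results of these data were known when the choice was made. All 9 symbols were found, each with 1 gene identifier, among 55536 annotated mouse genes. The cells were C57BL/6J bone-marrow-derived macrophages, that is, macrophages grown in culture from marrow precursors. They were exposed to 100 ng/ml lipid A, the membrane anchor of bacterial lipopolysaccharide, for 12 h, kept without it for 12 h, and given 100 ng/ml again for 180 min. Polyadenylated RNA was sequenced from 3 replicates of this 1 group. Other label fields name the agent lipoprotein A, a protein, so the labels conflict on what was given. Sex and age were not collected. Unstimulated and once-stimulated cells were not analysed here, so no response to lipid A can be read, and every value below is a level in twice-exposed cells or a spread between replicates. The labels number the 3 samples as biological replicates. They share 1 donor record, and nothing states separate animals or cultures. The spread and p-values therefore measure only the differences between these samples, which may be technical.

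Cells that make proteases also make inhibitors of them. Cystatins and stefins are small proteins that block the active-site cleft of papain-like cysteine proteases such as the lysosomal cathepsins: cystatin C (Cst3) is secreted, and stefin B (Cstb) stays in the cytosol. Serpins are larger proteins that offer an exposed reactive-centre loop as bait, and the protease that cuts the loop is trapped and distorted. Clade B serpins mostly lack a signal peptide and act inside the cell, clade A serpins are mostly secreted proteins, and Slpi is a small secreted inhibitor of neutrophil elastase and cathepsin G. Several of these genes are known to be induced by bacterial products or interferons in macrophages.

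In GENCODE M21 on mm10 all 9 are protein-coding genes. The cystatin genes are Cst3 (ENSMUSG00000027447.6) at chr2:148871722-148875692 on the minus strand and Cstb (ENSMUSG00000005054.7) at chr10:78425669-78427622 on the plus strand. The locus of Slpi is ENSMUSG00000017002.14, at chr2:164354070-164389095 on the minus strand. Among the clade B serpins, Serpinb2 (ENSMUSG00000062345.10) is at chr1:107511423-107535478 on the plus strand, and 3 lie on chromosome 13: Serpinb1a (ENSMUSG00000044734.16) at chr13:32842092-32851185 on the minus strand, Serpinb6a (ENSMUSG00000060147.15) at chr13:33917918-34002794 on the minus strand and Serpinb9 (ENSMUSG00000045827.10) at chr13:33003250-33017957 on the plus strand. The clade A genes are Serpina3f (ENSMUSG00000066363.12) at chr12:104214544-104221129 on the plus strand and Serpina3g (ENSMUSG00000041481.16) at chr12:104236245-104241939 on the plus strand.

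The loop is where a serpin meets its protease, so the coding sequence of that stretch is shown for the 6 serpin members, 5′ to 3′ on the coding strand. Each runs from the hinge codons (Gly-Thr followed by Glu or Val, then Ala) to the conserved Pro-Phe at the far end, was cut from the most abundant transcript of the GENCODE M21 annotation on mm10, and lies in 1 exon. The Serpinb1a stretch is at chr13:32842884-32842970 on the minus strand, the Serpinb2 stretch at chr1:107524789-107524875 on the plus strand and the Serpinb6a stretch at chr13:33918107-33918193 on the minus strand. The Serpinb9 stretch is at chr13:33015699-33015782, the Serpina3f stretch at chr12:104220245-104220337 and the Serpina3g stretch at chr12:104241072-104241161, all on the plus strand. Capitals in the last 2 mark the bases that differ between Serpina3f and Serpina3g in their alignment or have no partner in it, and the other 4 are printed without capitals.
Serpinb1a loop: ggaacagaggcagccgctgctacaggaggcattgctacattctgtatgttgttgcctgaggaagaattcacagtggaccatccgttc
Serpinb2 loop: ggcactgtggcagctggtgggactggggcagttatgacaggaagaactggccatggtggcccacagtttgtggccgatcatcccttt
Serpinb6a loop: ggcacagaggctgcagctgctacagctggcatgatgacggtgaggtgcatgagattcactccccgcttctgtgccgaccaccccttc
Serpinb9 loop: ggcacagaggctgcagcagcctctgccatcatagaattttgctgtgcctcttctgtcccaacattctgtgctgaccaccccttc
Serpina3f loop: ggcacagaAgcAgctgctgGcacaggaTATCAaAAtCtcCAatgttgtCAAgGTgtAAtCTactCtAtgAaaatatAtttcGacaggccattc
Serpina3g loop: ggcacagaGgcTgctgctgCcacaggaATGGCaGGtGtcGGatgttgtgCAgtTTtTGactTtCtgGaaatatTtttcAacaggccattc

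Serpina3f and Serpina3g are neighbours on chromosome 12, 15115 bases apart on the same strand with 1 annotated gene between them. In the aligned loop stretch 66 of 90 bases were identical (73.3%), against 89.3% of the 654 aligned bases in the rest of the coding sequence, so the loop was the more divergent of these 2 regions. The annotated coding sequence of Serpina3g has 744 bases, against 1335 for Serpina3f. The comparison therefore leaves out the part of Serpina3f that has no partner in this shorter Serpina3g annotation. Over the 248 aligned residues of their annotated coding sequences the proteins were 77.8% identical. The 4 clade B members were 43.7% to 56.5% identical to each other, with Serpinb6a and Serpinb9 the closest pair, and Cst3 and Cstb were 27.1% identical over 96 aligned residues. This bears on the measurement: 28.4% of the 31-base words of Serpina3g transcripts and 27.3% of those of Serpina3f also occur in other genes, each most often in the other of the pair (16.2% and 15.3%), so part of their reads cannot be assigned uniquely. The share was 29.0% for Serpinb6a, 13.1% with the overlapping opposite-strand gene Nqo2, 11.2% for Serpinb2 (all with the overlapping Serpinb10), 10.2% for Serpinb1a, 4.94% for Serpinb9 and 0% for Cst3, Cstb and Slpi.

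The libraries held 23377091, 36824106 and 37685712 reads on mouse genes in replicates 1, 2 and 3. A second set of deposited tables, made directly from the reads, held 1.31, 1.10 and 1.08 times as many, with the largest difference in replicate 1. Levels are given as TPM (transcript abundance per transcript length, scaled to the same total in each library, so that genes can be compared). A gene is called expressed where it reached 1 TPM in all 3 replicates. All 10 macrophage markers were expressed, summing to 16448, 17170 and 18936 TPM, with Lyz2 at 10782 ± 581 TPM and Adgre1 at 2254 ± 458 (SD, n = 3), so no defining marker of the labelled cell type was absent. Markers of neutrophils, which are also known to express Slpi and Serpinb1a, summed to 115.9, 221.7 and 102.1 TPM, with 4 of 11 expressed. S100a8 was at 6.84, 39.4 and 5.36 TPM and S100a9 at 4.20, 58.0 and 5.10, both highest in replicate 2. Of the granule protein genes, Ngp had 6, 190 and 7 reads and Ltf 3, 53 and 0 in replicates 1, 2 and 3, again highest in replicate 2. Csf3r, which macrophages also express, gave 98.3, 106.8 and 87.6 TPM of the sum, and Ly6g and Retnlg had no reads. Of the lymphocyte and NK markers 0 of 10 were expressed (summed 0.02, 1.34 and 0.34 TPM), of the mast cell, basophil and eosinophil markers 0 of 7 (0.33, 0.66 and 0.35) and of the stromal and epithelial markers 1 of 8 (3.24, 4.74 and 5.09).

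The members spanned a wide range of levels. Of the 9 members, 8 were expressed, a threshold passed by 44.3% of all 22028 protein-coding genes. The median over the members of log2(TPM + 1) was 4.56 ± 0.14 (SD over 3 replicates), against 0.40 ± 0.03 over all protein-coding genes and 4.14 ± 0.02 over the 10510 expressed genes of any type. The 9 genes summed to 3022 ± 105 TPM (SD, n = 3), and the 2 cystatins alone made up 84.1% ± 0.868 of that sum.

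Cstb, the cytosolic stefin, was the most abundant member. Its level was 1685 TPM in replicate 1, 1772 in replicate 2 and 1850 in replicate 3 (mean 1769 ± 82.5, SD, n = 3), which is rank 54 among 9749 expressed protein-coding genes. Cst3, the secreted cystatin, stood at 765, 772 and 780 TPM in replicates 1, 2 and 3 (mean 772 ± 7.35, SD, n = 3), at rank 148. Its highest and lowest libraries differed by a factor of only 1.02, and Cstb exceeded it in each library, by 1.19 ± 0.05 on the log2 scale (SD, n = 3). Both genes were lower in the tables made directly from the reads, with means of 1358 TPM for Cstb and 599 TPM for Cst3, and there Cst3 ranged from 495 TPM in replicate 1 to 693 in replicate 3. The near equality of the 3 Cst3 values therefore belongs to the alignment-based quantification. The ordering of the 2 cystatins held in every library of both.

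Serpinb6a, an intracellular clade B serpin known to bind cathepsin G, was the most abundant serpin of the 9. It was at 297 TPM in replicate 1, 403 in replicate 2 and 382 in replicate 3 (mean 361 ± 55.8, SD, n = 3), lowest in replicate 1 by both quantifications. Serpinb9, the intracellular inhibitor of granzyme B, was at 24.3, 23.6 and 20.0 TPM in replicates 1, 2 and 3 (mean 22.7 ± 2.29, SD, n = 3), close to the middle of the expressed protein-coding genes (percentile 56.0). These 2 clade B serpins were steady compared with Serpinb2 below: their highest library exceeded the lowest 1.35-fold and 1.21-fold.

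**Figure D1:**
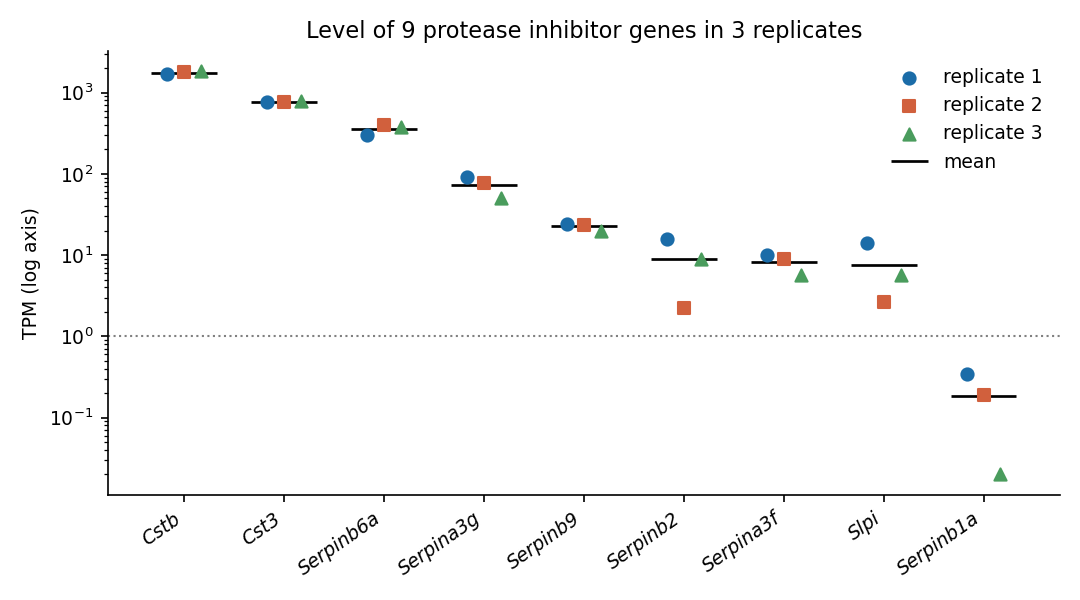
TPM of each of the 9 inhibitor genes (log axis) in replicates 1, 2 and 3, ordered by the mean, which the black bar marks; the dotted line is at 1 TPM. The points of the first 5 genes form steps that do not overlap, while Serpinb2, Serpina3f and Slpi overlap and Serpinb1a lies under 1 TPM in each replicate.

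Serpina3g and Serpina3f belong to the antichymotrypsin cluster of serpins, which is expanded in mice, and kept similar ratios to each other across the replicates. Serpina3g encodes Spi2A, which is known to act in the cytosol. Serpina3g was at 91.4 TPM in replicate 1, 76.6 in replicate 2 and 50.4 in replicate 3 (mean 72.8 ± 20.8, SD, n = 3). Serpina3f was at 10.04, 8.93 and 5.64 TPM in the same order (mean 8.20 ± 2.29, SD, n = 3). The 2 genes descended in the same order of replicates, and Serpina3g exceeded Serpina3f 9.10-fold, 8.58-fold and 8.93-fold in replicates 1, 2 and 3, or 3.15 ± 0.04 on the log2 scale (SD, n = 3). The log2 ratios in the tables made directly from the reads were 3.31, 3.06 and 3.07, a wider spread. The 2 genes share sequence, as given above, and the part of divided reads in this parallel was not tested. In the tables made directly from the reads the order of replicates 1 and 2 turned for both: Serpina3g was at 65.6 TPM in replicate 1 and 67.2 in replicate 2, both above replicate 3, and Serpina3f at 6.61, 8.06 and 5.94 TPM in replicates 1, 2 and 3.

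Of the expressed members, Slpi and Serpinb2 varied most. Slpi was at 14.3 TPM in replicate 1, 2.68 in replicate 2 and 5.73 in replicate 3 (mean 7.55 ± 6.00, SD, n = 3), from 137, 38 and 89 reads. Serpinb2, also called plasminogen activator inhibitor 2, was at 15.9, 2.21 and 8.91 TPM in replicates 1, 2 and 3 (mean 9.00 ± 6.84, SD, n = 3), from 435, 97 and 398 reads. Both genes were highest in replicate 1 and lowest in replicate 2, 5.32-fold apart for Slpi and 7.19-fold for Serpinb2, and both kept that order in the tables made from the reads (4.94-fold and 5.45-fold). Replicate 2 is the library with the highest S100a8, S100a9, Ngp and Ltf, and the part of other cells in the spread of Slpi and Serpinb2 was not tested. In bulk samples, fewer cells of a type and less RNA per cell cannot be told apart. Replicate 1 is the library with the fewest reads on mouse genes, and the part of depth in this spread was not tested. Without replicate 2, the highest library of Slpi was 2.49 times the lowest and that of Serpinb2 1.78 times. Without replicate 1, the factors were 2.14 and 4.03.

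Serpinb1a, the inhibitor of neutrophil elastase, proteinase 3 and cathepsin G, was the one member under the threshold, at 0.34, 0.19 and 0.02 TPM. These rest on 9, 6 and 1 reads in replicates 1, 2 and 3, or 0.385, 0.163 and 0.0265 CPM (counts on the scale of the library total). The exact Poisson 95% intervals, which cover counting error only, were 0.176 to 0.731, 0.0598 to 0.355 and 0.000672 to 0.148 CPM. Those of replicates 1 and 2 overlap, as do those of replicates 2 and 3, while those of replicates 1 and 3 do not. In the order of levels, each member from Cstb down to Serpinb9 lay wholly above the next (Serpinb9 above Serpinb2 included), and Slpi lay wholly above Serpinb1a. Serpinb2, Serpina3f and Slpi overlapped as neighbours, and their order is not set by these data.

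The spread was read against all genes. Among the 10510 expressed genes, 2635 (25.1%) had a highest library over 1.5 times the lowest, and of the 8 expressed members 4 did: Slpi, Serpinb2, Serpina3f and Serpina3g. Among expressed genes within a factor of 2 of a member's mean TPM, 0.503% spread at least as far as Slpi, 0.423% as far as Serpinb2, 14.7% as far as Serpina3f and 6.16% as far as Serpina3g, whereas 98.4% spread at least as far as Cst3. These shares cover expressed genes only, so a gene with a lowest library under 1 TPM is left out however far it spread. Leaving out replicate 3 brought Serpina3f to 1.12 and Serpina3g to 1.19, which leaves 2 members past 1.5. The share of all expressed genes past 1.5 was not computed with a replicate left out, so this fall has no background beside it. In the tables made from the reads 47.6% of expressed genes passed 1.5, and the members that did were Slpi, Serpinb2 and Serpinb6a, a different set of 3.

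An intercept-only quasi-likelihood fit in edgeR asked whether any gene varied more between replicates than genes of its abundance do. It called 0 of 11992 genes tested (0%) at an adjusted p of 0.05, with 627 at an unadjusted p of the same size. limma-trend also called 0 genes, and DESeq2 marked 53 as dispersion outliers, with Serpinb2 the 1 member among them. The adjusted p from edgeR was 0.818 for Serpinb2, 0.841 for Slpi, 0.942 for Serpina3g and 0.965 for Serpina3f, and 0.995 to 0.999 for the other 4 tested. Serpinb1a had too few reads to be tested. No spread of a member therefore passed the edgeR test. The smallest edgeR adjusted p of any gene was also 0.818, although Serpinb2 spread 7.19-fold. With 3 replicates the fit has little information per gene, and the spread it compares with was fitted to these same genes. The lack of calls therefore does not show that the members were steady. The F statistic of Serpinb2 stood at percentile 99.8 of all genes tested and that of Slpi at percentile 98.3.

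**Figure D2:**
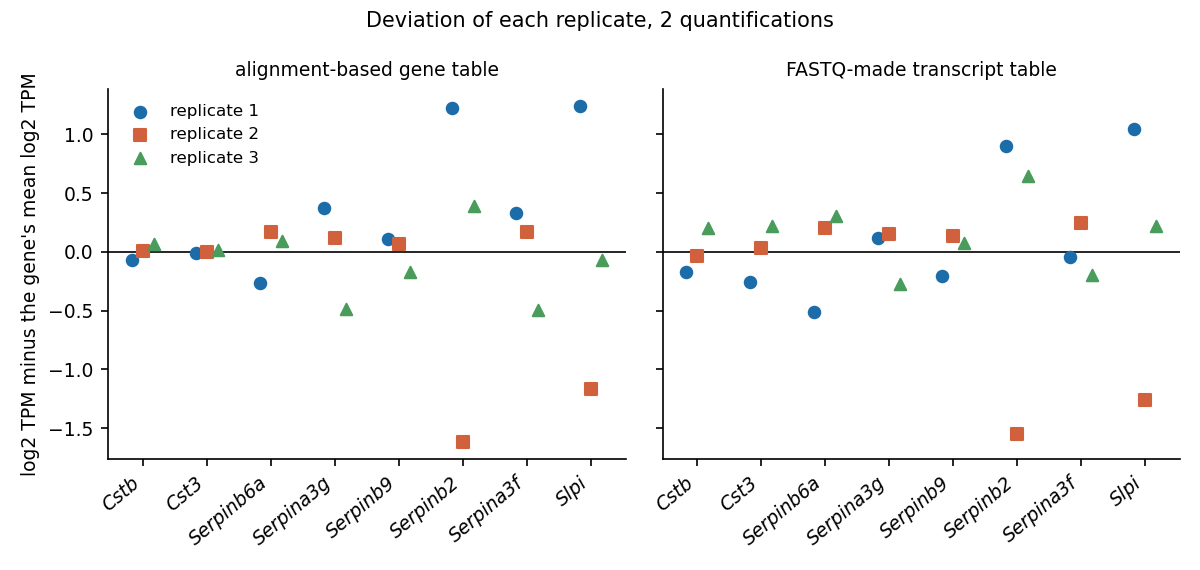
Each point is the log2 TPM of 1 replicate minus the mean log2 TPM of that gene over the 3 replicates, for the 8 expressed members, from the alignment-based gene tables (left) and the tables made directly from the reads (right). Slpi and Serpinb2 have replicate 1 on top and replicate 2 at the bottom in both panels, while for Serpina3f and Serpina3g replicates 1 and 2 change places between them.

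For members with a spread over 1.5, the 2 genes with the most similar deviations were sought among those with a mean of at least 10 TPM. Over only 3 libraries such likeness is a description, since many genes share an order. The nearest to Slpi were Cxcl1, a neutrophil-attracting chemokine, at 36.1, 6.30 and 14.1 TPM in replicates 1, 2 and 3, and Lox, which crosslinks collagen, at 22.2, 5.09 and 10.6 (root mean square differences of 0.04 and 0.13 on the log2 scale). Nearest to Serpinb2 were Ly6i at 27.8, 5.40 and 17.8 TPM and the lipase gene Lipg at 38.1, 6.39 and 31 (differences of 0.20 and 0.22). For Serpina3f they were Mbd6 and Oas2, the latter an interferon-induced RNA sensor at 65.9, 57.6 and 36.7 TPM, and for Serpina3g they were Mdm2 and Pla2g4a, all within 0.02. For Serpinb1a, with its 1 to 9 reads, the nearest were Slfn4 and Gm21887, at differences of 0.68 and 0.81.

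Promoters of the 3 members below are shown because Serpina3f and Serpina3g moved together across libraries and Serpinb2 spread the furthest among expressed members. They are bases -250 to -1 before the RefSeq transcription start in GRCm38.p6, 5′ to 3′ on the gene's strand: chr12:104214294-104214543 (plus strand) for Serpina3f, chr12:104235897-104236146 (plus) for Serpina3g and chr1:107511173-107511422 (plus) for Serpinb2. Capitals mark matches, on either strand, to 6 motifs searched in the 300 bases from -250 to +50: GAS (TTCNNNGAA), ISRE (GAAANNGAAA), the NF-kappaB consensus, AP-1 (TGANTCA), C/EBP (TTGCNNCAA) and the core promoter box spelled TATAAA. None of the printed matches overlaps another.
Serpina3f promoter: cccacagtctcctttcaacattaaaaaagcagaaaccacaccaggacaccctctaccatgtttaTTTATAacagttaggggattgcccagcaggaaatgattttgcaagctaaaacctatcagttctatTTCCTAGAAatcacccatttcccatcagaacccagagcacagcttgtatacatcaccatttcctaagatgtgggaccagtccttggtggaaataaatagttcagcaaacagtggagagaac
Serpina3g promoter: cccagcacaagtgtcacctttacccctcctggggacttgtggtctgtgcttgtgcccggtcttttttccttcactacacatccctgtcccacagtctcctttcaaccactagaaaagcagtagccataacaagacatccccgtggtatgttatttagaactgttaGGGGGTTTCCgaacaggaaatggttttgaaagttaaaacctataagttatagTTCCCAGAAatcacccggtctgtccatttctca
Serpinb2 promoter: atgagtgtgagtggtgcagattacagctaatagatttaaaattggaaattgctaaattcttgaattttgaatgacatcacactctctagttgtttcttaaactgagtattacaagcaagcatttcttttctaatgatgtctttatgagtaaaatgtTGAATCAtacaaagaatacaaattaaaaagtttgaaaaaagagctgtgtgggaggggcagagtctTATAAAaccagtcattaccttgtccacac

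RefSeq entries were matched for 7 of the 9 members. Serpinb2, Serpinb6a and Serpina3f have 2 entries each, with different start sites, and values are for the first unless stated. The interferon-gamma-activated motif GAS, found in 8.30% of the 32851 promoters of the table, was present in both Serpina3 genes, as TTCCTAGAA at -121 to -113 of Serpina3f and as TTCCCAGAA at -33 to -25 of Serpina3g. Both copies lie in a stretch that aligns between the promoters, with 169 of 202 aligned bases identical (83.7%), so they do not count as separate occurrences. The RefSeq start site of Serpina3g lies inside that stretch and that of Serpina3f outside it. The stretch runs from the first base of the Serpina3f window to the last of the Serpina3g window, so the windows limit it. The GENCODE gene start of Serpina3g, chr12:104236245, lies downstream of this window. The positions given for Serpina3g, and the contrast with Serpina3f, thus depend on the annotation used. Serpina3f also held the TATAAA box on the minus strand at -186 to -181, and Serpina3g an NF-kappaB match at -85 to -76 (4.51% of all promoters hold one). Serpinb2 held AP-1 (7.81% of promoters) at -94 to -88, the TATAAA box (13.6%) at -29 to -24 and GAS at +11 to +19. Counted from the start site of its second entry, the same 3 matches lie further upstream, with AP-1 at -181 to -175, TATAAA at -116 to -111 and GAS at -77 to -69. In the second entry of Serpina3f the GAS match is at -210 to -202 and the TATAAA box is outside the window.

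Among the other members, Serpinb6a held 2 GAS matches and an ISRE match in its first entry and none of the 6 motifs in its second, and Serpinb9 an ISRE match at -46 to -37 on the minus strand. ISRE, the motif of interferon-stimulated genes, was in 3.44% of promoters. The windows of Cst3 and Slpi held none of the 6, and no member held C/EBP (2.08% of promoters). The first entries of Serpinb6a and Cst3 had 25 and 13 CG dinucleotides in the window, against a median of 7 over all promoters. Serpinb9 had 5, Serpina3g 4, Slpi 2, Serpinb2 1 and Serpina3f 0. The second entries of Serpinb6a, Serpinb2 and Serpina3f had 5, 4 and 1. By the alignment-based spread, members past 1.5-fold thus had at most 4, and the other members with an entry at least 5. In the tables made directly from the reads, Serpinb6a passed 1.5-fold and the Serpina3 genes did not. A link between this count and the spread was not tested. A match is a description of letters, and no binding was measured here.

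Which transcripts made up each level was read from the deposited share of a gene's TPM in each annotated transcript. In all 9 members 1 transcript held over 50% on average. Cstb has a single annotated transcript, Cst3-201 held 99.4% ± 0.128 (SD, n = 3) and Serpinb9-201 held 100% in each replicate. Serpinb6a has 17 annotated transcripts, of which 15 had some TPM, and Serpinb6a-202 held 77.4% ± 0.595 (SD, n = 3). Serpina3g was the most divided: Serpina3g-201 held 64.3%, 59.4% and 61.8% in replicates 1, 2 and 3, and the shorter Serpina3g-202 held 26.7%, 27.4% and 25.6%. These shares kept steady although the gene's level varied 1.81-fold.

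Serpinb2 differed in this respect. Serpinb2-202 held 27.1% in replicate 1, 0% in replicate 2 and 30.9% in replicate 3, with Serpinb2-201 holding the rest, and replicate 2 was also the library with the fewest Serpinb2 reads. In the tables made from the reads Serpinb2-202 was not at 0 in replicate 2, and the mean share of Serpinb2-201 was 63.0% in place of 80.7%. The 0% is therefore not a measured absence. In replicate 3 of the tables made from the reads, Serpinb2-202 led, at 56.8% against 43.2% for Serpinb2-201. Serpina3f-202 held 81.5%, 96.6% and 100%, and Slpi-201 held 96.8%, 86.9% and 100% in replicates 1, 2 and 3. For Slpi-201 the tables made from the reads gave 85.3%, 98.5% and 100%, so replicates 1 and 2 changed order.

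**Figure D3:**
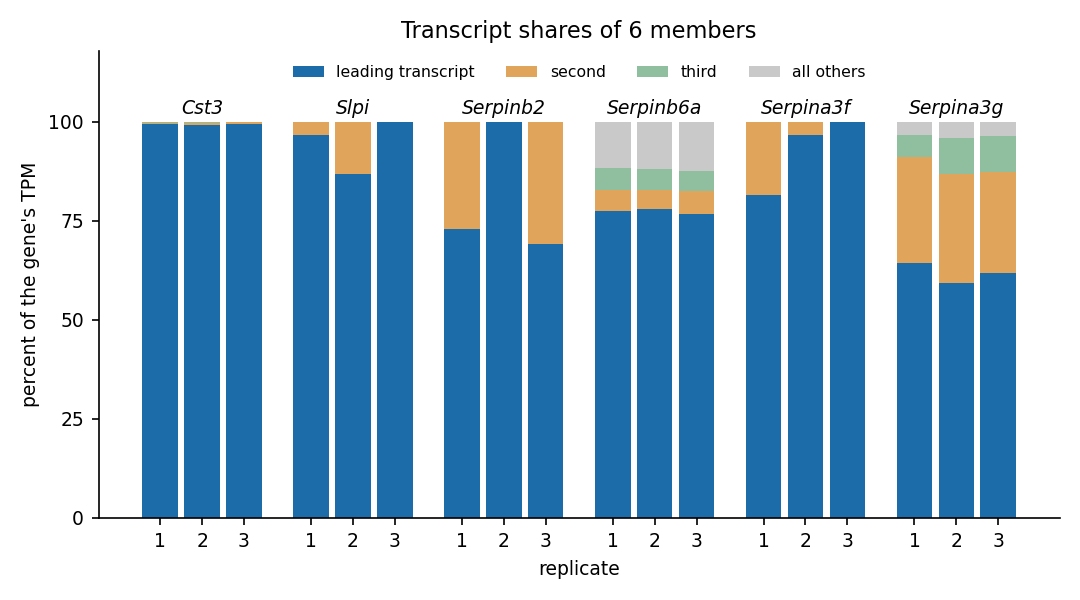
Stacked bars give the percent of each gene's TPM in its leading transcript, in the second, in the third and in all others, ranked by mean share, for 6 members in replicates 1, 2 and 3. Cst3 is almost wholly 1 transcript, the 4 transcripts of Serpina3g keep similar shares, and the second transcript of Serpinb2 is at 0 in replicate 2.

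Other genes of the same families gave the members their setting. Of 18 other cystatins and stefins measured, 1 was expressed: Cst7, which encodes the lysosomal inhibitor cystatin F, at 269, 344 and 289 TPM in replicates 1, 2 and 3. Of 21 other clade A serpins listed 0 were expressed, and 20 had no read in any library. Serpina3f and Serpina3g were thus the only expressed genes among the clade A serpins listed. Of 23 other clade B serpins 3 were expressed, led by Serpinb8 at 14.0 ± 6.13 TPM (SD, n = 3), with Serpinb1c at 3.58 ± 2.07 and Serpinb6b at 3.23 ± 0.659.

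Slpi was not the main whey acidic protein gene. Among 22 genes of the whey acidic protein, Kunitz and other inhibitor families 7 were expressed. Wfdc17, whose protein has the same kind of domain as Slpi, was at 1150, 1485 and 1250 TPM in replicates 1, 2 and 3, above Cst3 in each. The next were the metalloproteinase inhibitor Timp2 at 193 ± 73.2 TPM, Pebp1 at 78.2 ± 9.17 and the calpain inhibitor Cast at 49.3 ± 7.17 (SD, n = 3). Wfdc17 was lowest in replicate 1, the library in which Slpi was highest.

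Among the proteases that these inhibitors are known to bind, several lysosomal ones were abundant and the granule serine proteases were near-absent. Plau, the target of Serpinb2, lay between them and is given below. Of 12 lysosomal protease genes (cysteine proteases, with the serine carboxypeptidase gene Ctsa listed beside them) 10 were expressed, and together they summed to 19656 ± 1078 TPM (SD, n = 3). Ctsb was the highest at 7859 ± 750 TPM, followed by Ctss at 4219 ± 97.7, Ctsz at 2707 ± 215 and Lgmn at 1748 ± 312 (SD, n = 3). Of 14 serine proteases of granules 0 were expressed. Elane had 0, 0 and 2 reads in replicates 1, 2 and 3, Prtn3 had 0, 3 and 4, and Ctsg had 0, 2 and 2, so the neutrophil proteases that Slpi, Serpinb1a and Serpinb6a inhibit were at or near 0. Gzmb, the target of Serpinb9, had 0, 53 and 1 reads, that is, reads almost only in replicate 2, the library with the highest S100a8 and S100a9.

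**Figure D4:**
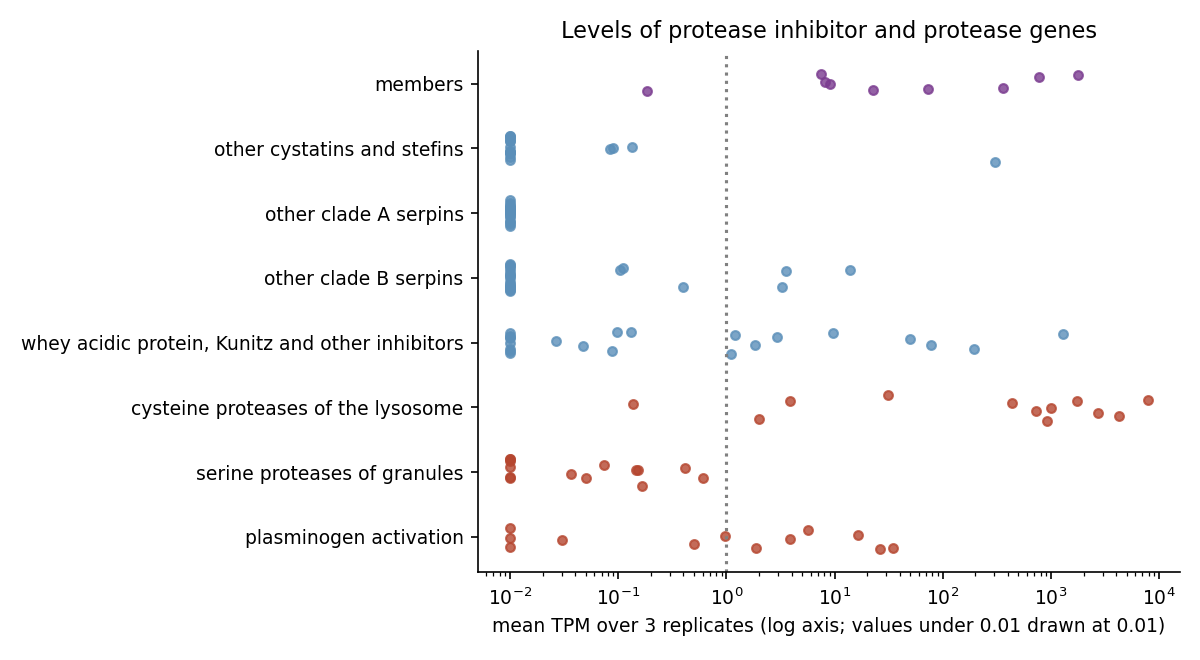
Mean TPM over 3 replicates (log axis) of the 9 members (purple), other inhibitor genes (blue) and proteases and plasminogen activation genes (red), 1 point per gene with random vertical offset; the dotted line is at 1 TPM. Lysosomal cysteine proteases sit to the right of most inhibitors, while granule serine proteases and other clade A serpins lie left of the line.

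Ratios of inhibitor to protease within a library, on the TPM scale, were formed for 17 pairs, of which 10 could be measured in all 3 replicates. They compare RNA levels only, and neither protein amounts nor inhibition was measured here. The inhibitor was above the protease in 3 of these 10. Cstb exceeded Ctsl by 2.03 ± 0.30 on the log2 scale and Ctsh by 1.27 ± 0.04, and Cst3 exceeded Ctsl by 0.83 ± 0.25 (SD, n = 3), each in 3 of 3 replicates. These are levels per transcript length: on reads not divided by length all 3 turned, to -0.13, -0.51 and -0.50. Against the most abundant cathepsins the cystatins were lower, with Cstb at 22.6% ± 1.11 and Cst3 at 9.88% ± 0.856 of Ctsb, and Cst3 at 18.3% ± 0.434 of Ctss (SD, n = 3). Cst7 was at 32.8% ± 2.90 of Ctsc, whose product cystatin F inhibits. Serpina3g, whose protein is reported to inhibit cysteine cathepsins, was at 16.6% ± 3.39 of Ctsl and 0.949% ± 0.351 of Ctsb.

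The ratio of Serpinb2 to the plasminogen activator it inhibits was the least steady of the 10. Plau, which encodes urokinase, was at 36.4, 29.0 and 13.2 TPM in replicates 1, 2 and 3, and its receptor gene Plaur at 15.2, 14.4 and 20.0. Serpinb2 was at 43.7%, 7.61% and 67.3% of Plau in replicates 1, 2 and 3, so Plau was the higher in every library. Of 12 genes of plasminogen activation and coagulation 6 were expressed, and F10 was the highest at 34.7 ± 16.1 TPM (SD, n = 3).

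**Figure D5:**
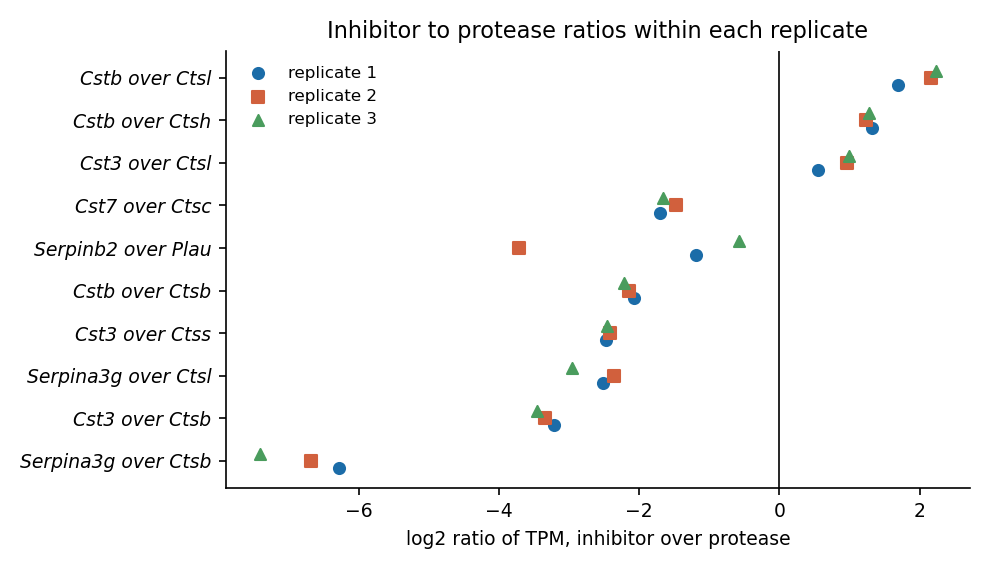
Log2 ratio of inhibitor TPM over protease TPM within replicates 1, 2 and 3 for the 10 pairs measured in all 3; 0 marks equal levels per transcript length. Only Cstb over Ctsl, Cstb over Ctsh and Cst3 over Ctsl lie right of 0 in every replicate, and the ratio of Serpinb2 to Plau spreads the widest.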

How the data were processed

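The authors deposited 3 tables per library: gene and transcript tables derived, per the deposited file lists, from a transcriptome alignment, with expected counts, TPM and, for transcripts, the percent of the gene's TPM, and a transcript table derived directly from the reads, with estimated counts and TPM. The build is mm10 with GENCODE M21 annotation, per the deposited file lists; the programs: not given in the sources used here. Libraries were made from 1 µg RNA, per the labels.

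From these, levels, SDs and ratios were computed in Python 3.11.15 on deposited TPM, and transcript TPM of the reads-made tables were summed per gene. Rows that are not mouse genes (0.178%, 0.107% and 0.115% of expected counts in replicates 1, 2 and 3) were left out. Expected counts were rounded for edgeR 4.0.16 (R 4.3.3, TMM scaling, low-count filter, Benjamini-Hochberg over all genes tested). limma 3.58.1 and DESeq2 1.42.0 were alternatives. The edgeR fit was tested on simulated data.

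The members and gene lists were chosen with earlier results of these data known. Named are all members, in each other list up to 4 genes with a mean of at least 10 TPM, and for members with a spread over 1.5 the 2 genes with the most similar deviations. Serpinb1c, Serpinb6b and the other genes given by read count were named after their values were seen. Loops were located by a motif search in the translated coding sequence, with a Pro-Phe end. A gene list and a ratio considered at the outset are not reported here.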

Additional observations from a re-analysis of the deposited data

How the results depend on the processing

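Depth limits Serpinb1a, Slpi and the transcript shares of Serpinb2 most, since they rest on few reads, and 3 samples of 1 group limit every statement on spread. The count of genes with excess variance was 0 with RLE size factors, limma-trend and each replicate left out, but 143 with no low-count filter and 53 as DESeq2 dispersion outliers. The median log2(TPM + 1) of the members, 4.56, became 4.26 in the tables made from the reads and 5.36 over the 8 members with a mean of at least 1 TPM, because Serpinb1a drops out. With each replicate left out it stayed within the SD. The number of members past a 1.5-fold spread was 4, and 2 to 4 with a replicate left out, an alternative chosen after seeing the data. The share over all expressed genes was not computed for that alternative. On counts not divided by length, 0 in place of 3 inhibitor to protease ratios were above 0: Cst3 over Ctsl became -0.50, Cstb over Ctsl -0.13 and Cstb over Ctsh -0.51. The mean TPM was lower in the tables made from the reads for all 9 members, by more than the SD for 4 (Cst3, Cstb, Serpinb6a and Serpinb9). No paired analysis was possible because the series holds 1 group.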
